A study of Mus musculus with 15 samples.

Results

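The genes described here encode proteins that bind RNA during splicing: the hnRNP proteins, the SR proteins with TRA2, the SF3A and SF3B subunits of the U2 particle, the U2AF subunits with Puf60, and the PTBP, CELF, ELAVL, RBFOX and NOVA families. Members were taken by symbol, with Hnrnpc left out, and each gene was read from the probe with the highest mean Cy5 signal. Of 20972 gene symbols on the array 62 were members, and 61 of them entered the tests. Tra2b was left out because its probe stood well above background on only 2 of 15 arrays, 0 ERD, 1 BLD and 1 STD. By family there were 19 hnRNP genes, 12 SR and TRA2 genes of which 11 were measured, 9 SF3A and SF3B genes, 6 CELF genes, 4 ELAVL genes, 4 U2AF and Puf60 genes, 3 PTBP genes, 3 RBFOX genes and 2 NOVA genes. The list was put together around Puf60 because of its values in these animals, so the diet values of Puf60 are a description and carry no test.

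Pre-mRNA splicing begins when U2AF and the branch point proteins of the U2 particle mark the acceptor end of an intron, and SR proteins and hnRNP proteins bound nearby favour or hinder that choice. Puf60 binds pyrimidine-rich stretches beside U2AF and promotes use of weak acceptor sites. In the brain, NOVA, RBFOX, CELF and neuronal ELAVL proteins add a layer of neuron-specific control, while PTBP1, abundant in dividing cells, gives way to PTBP2 as neurons form.

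The animals were male C57BL/6J mice that ate an assigned diet for 24 weeks from 3 weeks of age. ERD was enriched in n-3 polyunsaturated fatty acids (n-3 to n-6 ratio 7 to 1), BLD was balanced (1 to 1) and STD was the standard laboratory diet (1 to 6), and the 3 diets held equal calories, per the study's design text. Each diet had 5 animals, with 1 left hemibrain per array. The sample titles carry the word CONTROL in all 3 diets, and the groups were taken from the diet labels. The left hemibrain holds all cell types of that side together, and no cells were separated. Hemibrain RNA was labelled with Cy5 and a commercial pool of RNA from 11 mouse cell lines with Cy3 on every array, and the value of a gene is the log2 ratio of hemibrain over that reference. Between 17720 spots (ERD 1) and 31991 spots (BLD 4) stood well above background in Cy5. ERD 1 also had the lowest median correlation with the other arrays (0.88, against 0.91 to 0.96 for the remaining 14). The arrays lay on 8 slides and were scanned on 2 days, and the later day held ERD 4, BLD 2, BLD 3 and BLD 4 and no STD array.

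In the hemibrain the neuronal families and the general splicing factors stood on opposite sides of the reference. In STD animals all 15 CELF, ELAVL, RBFOX and NOVA genes had a mean log2 ratio above 0 by their chosen probes, with a median of 2.90. Of the 46 other measured members 34 lay below 0 and 12 above it, with a median of -0.63. The highest ratios belonged to Rbfox1, a neuronal regulator of alternative exons, with 5.58 ± 0.44, and to Celf5, a brain CELF protein, with 4.85 ± 0.20 (SD, n = 5). Celf4 was at 3.75 ± 0.30, Celf3 at 3.52 ± 0.45 and Elavl3, a neuron-specific ELAVL protein, at 3.50 ± 0.28 (SD, n = 5 each). Rbfox3, which encodes the neuronal nuclear antigen NeuN, was at 3.43 ± 0.26.

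The lowest ratios belonged to Hnrnpll (-2.31 ± 0.12), Hnrnpf (-2.06 ± 0.22), Srsf7 (-1.92 ± 0.11), Ptbp1 (-1.86 ± 0.23) and Hnrnpab (-1.86 ± 0.29) (SD, n = 5 each). Ptbp2, the neuronal paralog of Ptbp1, lay near the reference at 0.08 ± 0.18. Among the general factors Srsf12, an SR protein, stood out with 2.17 ± 0.45 and Hnrnpul2, an hnRNP U-like protein, with 1.25 ± 0.21. The reference comes from cultured lines and was always in Cy3, so a dye effect of a single gene and a difference between tissue and reference cannot be told apart. The choice of probe matters for such ratios, and it was made on the Cy5 signal, which is that of the hemibrain. A further probe of Elavl1, the broadly expressed ELAVL protein HuR, read -2.57 in STD where the chosen probe read 1.76. A further Celf1 probe read -0.53 and a further Rbfox2 probe -0.02 in STD. The other further probes of the CELF, ELAVL, RBFOX and NOVA genes lay above 0.

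**Figure D1:**
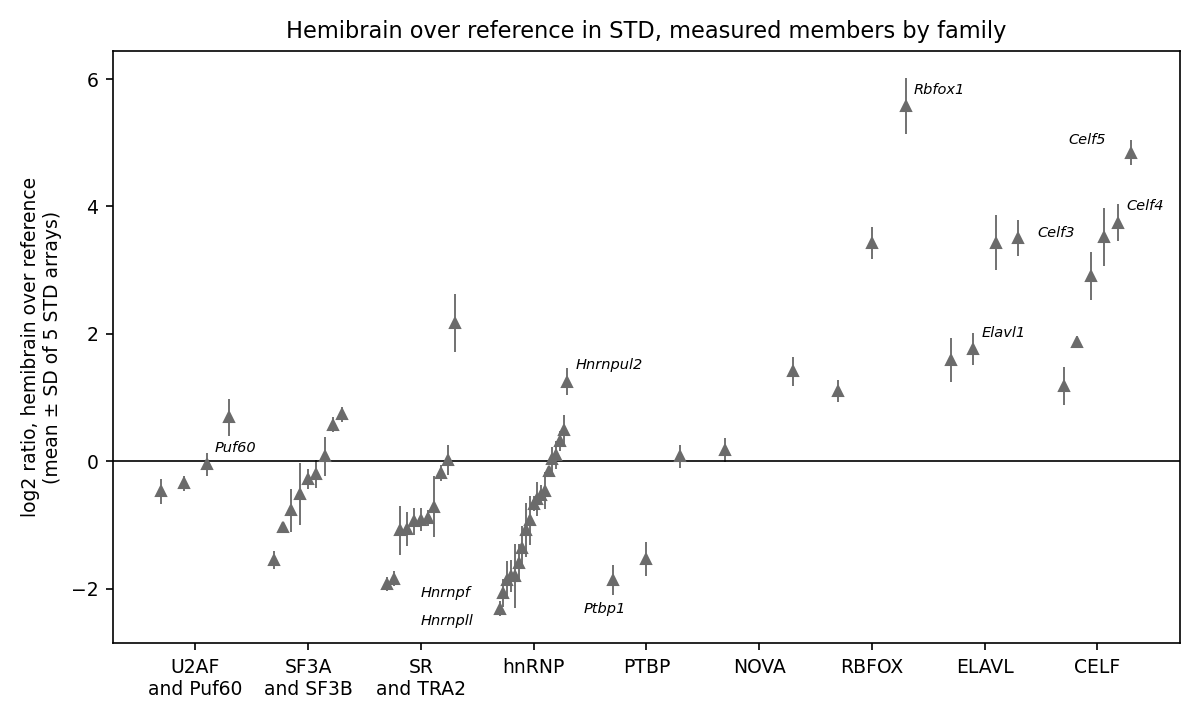
Mean log2 ratio of hemibrain over reference in STD (triangles) with the SD of 5 arrays (bars), for the 61 measured members grouped by family along the horizontal axis. By their chosen probes all 15 CELF, ELAVL, RBFOX and NOVA genes lie above 0, with Rbfox1 at 5.58, and 34 of the 46 others lie below 0.

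The first question of the design is how hemibrain RNA of animals on the enriched diet differs from that of animals on the standard laboratory diet. With an adjusted p of 0.05 over all 22545 genes (limma, Benjamini-Hochberg), 49 genes were called (0.217%). The only member among them was Puf60, for which the list was chosen, so its call is no test. None of the other 60 members was called: 15 had an unadjusted p under 0.05, 2 higher and 13 lower in ERD, which is 25% of them beside 14.6% of all genes. With slide as a fixed block the count over all 61 members was 3 higher and 3 lower (9.84%, against 9.98% of all genes). In the counts of that fit neither the excess nor the lean to lower values was seen. With scan day as a block the count was 3 higher and 8 lower (18%, against 13.3%). Among all genes the lower share was 7.54% and the higher share 7.09%. The median log2 difference of these 60 members was -0.14, against 0.02 over all genes, and 42 lay below 0, where 47.1% of all genes did. Without ERD 1 and ERD 2, which are described further on, the median over the 61 members was -0.037 in place of -0.13. Over all 30 alternatives, slide as a block among them, that median lay between -0.21 and -0.037.

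The comparison of BLD with STD asks the same of the balanced diet. Here 2 of 22545 genes were called (0.00887%) and 0 members. Leaving Puf60 aside, 7 members were higher and 2 lower in BLD at an unadjusted p under 0.05 (15%, against 10.8% of all genes, with 7.77% higher and 3.07% lower), and the median was 0.08 beside 0.05 over all genes. A difference below 0 was seen in 22 members, and in 39.4% of all genes. The later scan day held 3 of 5 BLD arrays and no STD array. With scan day as a block 3 of 61 members were higher and 0 lower at that p (4.92%, against 5.45% of all genes), and with slide as a block 1 was higher and 0 lower (1.64%, against 5.35%).

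Between ERD and BLD 0 genes were called (0%), so 0 members were called in limma. At an unadjusted p under 0.05, 2 of the 60 members were higher and 16 lower in ERD than in BLD, 30% of them beside 10.4% of all genes, among which 2.63% were higher and 7.74% lower. In ERD 46 of the 60 lay below BLD, where 58.1% of all genes did. The median member differed by -0.22, beside -0.04 over all genes. Without ERD 1 and ERD 2 the count over all 61 members was 1 higher and 7 lower (13.1%, against 6.28% of all genes), and with slide as a block it was 1 higher and 12 lower (21.3%, against 10.9%). The 3 comparisons share arrays, and the members share them too, so these counts describe these 15 animals.

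**Figure D2:**
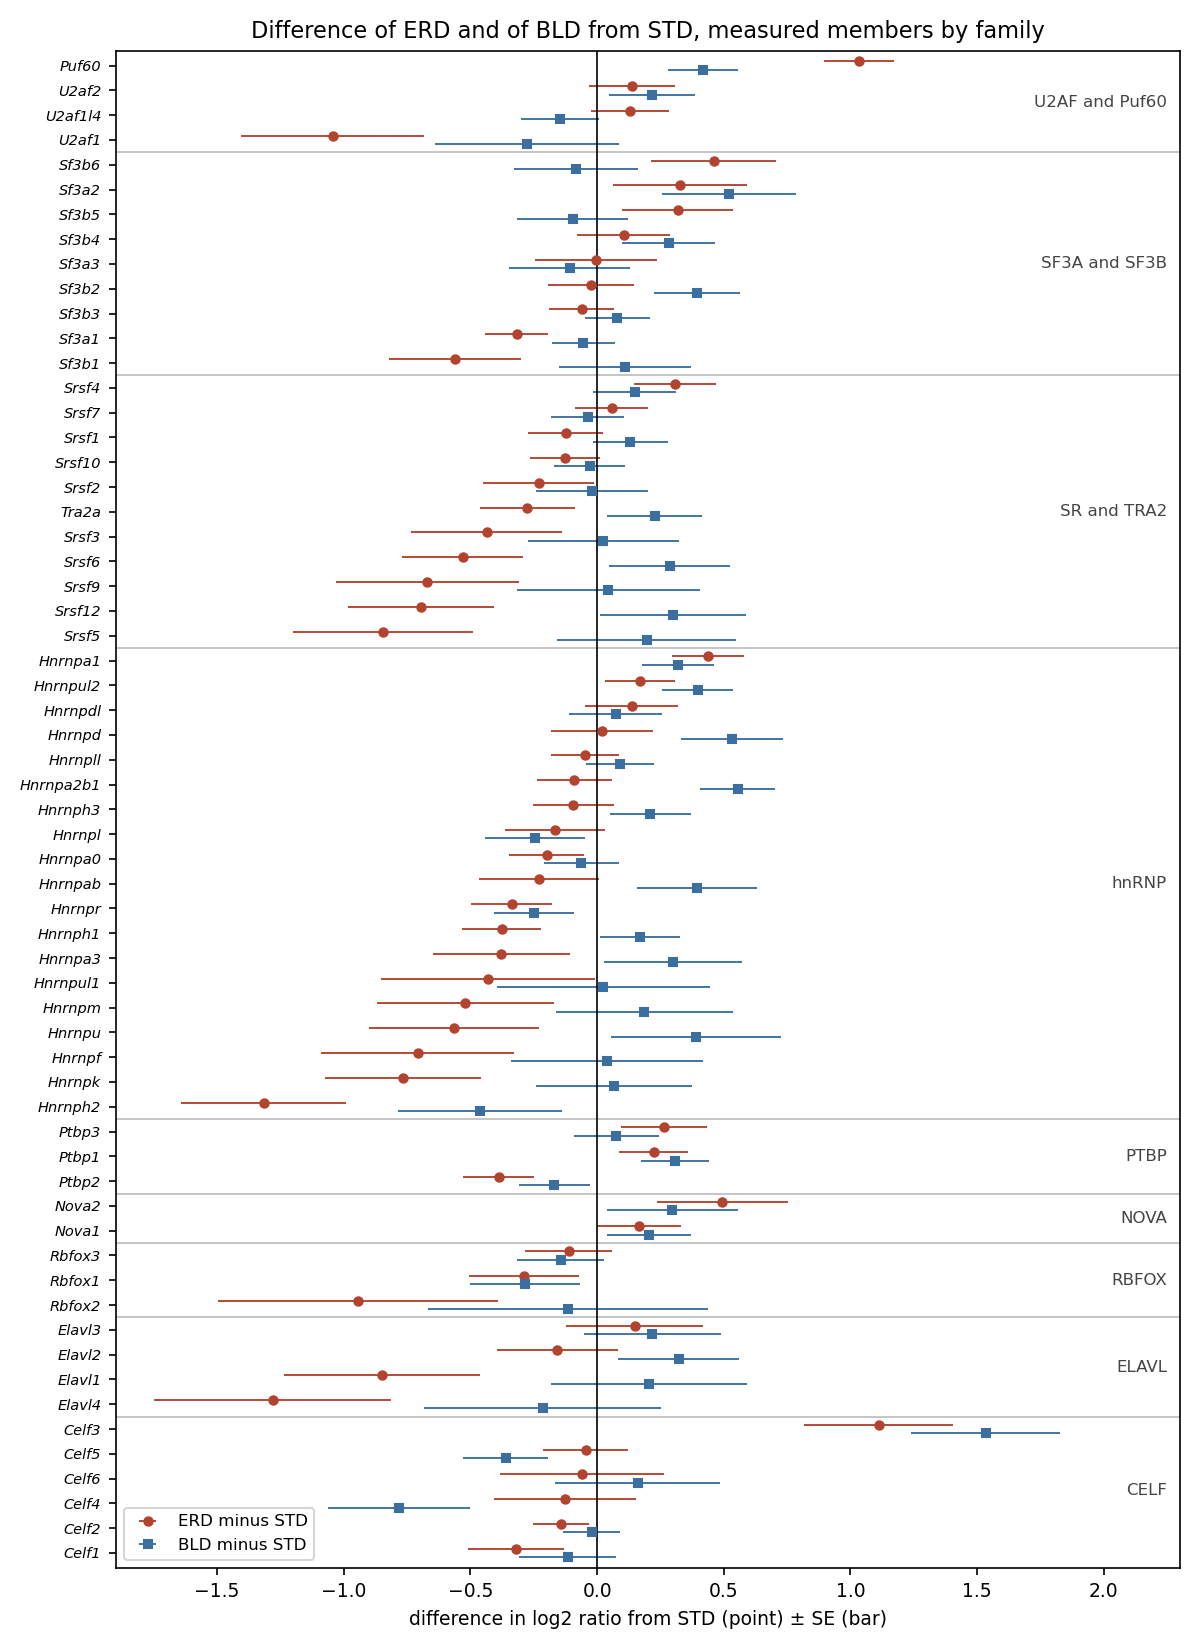
Difference in log2 ratio from STD for each measured member, for ERD (circles) and BLD (squares), with the standard error of the fit as bars, grouped by family from top to bottom. Most hnRNP and SR points for ERD lie left of 0 and most for BLD right of it, while Puf60 (1.03 for ERD) and Celf3 (1.11 for ERD, 1.53 for BLD) lie far right.

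Puf60 was higher in the hemibrains of animals on the enriched diet, with BLD between ERD and STD. Its log2 ratio was 1.28, 1.09, 0.51, 1.05 and 1.03 on the 5 ERD arrays, 0.14, 0.39, 0.51, 0.42 and 0.42 on the 5 BLD arrays, and -0.25, -0.04, 0.22, -0.16 and 0.02 on the 5 STD arrays. Every ERD array lay above every STD array and above every BLD array, with ERD 3 and BLD 3 almost level, while BLD and STD overlapped. The means were 0.99 ± 0.29 in ERD, 0.37 ± 0.14 in BLD and -0.04 ± 0.18 in STD (SD, n = 5 each). ERD was 2.05-fold above STD, BLD 1.33-fold above STD and ERD 1.53-fold above BLD.

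The difference sat in the hemibrain channel: Cy5 alone differed by 1.02 between ERD and STD, and the reference in Cy3 by 0.10 on the log2 scale. On the 3 slides that carried both diets, ERD was above STD by 1.13 (slide 4), 0.76 (slide 5) and 1.18 (slide 7). The scanner software's own log ratio gave a difference of 0.89 in place of 1.03. The array has a single probe for Puf60, so no further probe could be set beside it. In these bulk samples, more Puf60 RNA per cell and more cells that express it cannot be told apart.

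**Figure D3:**
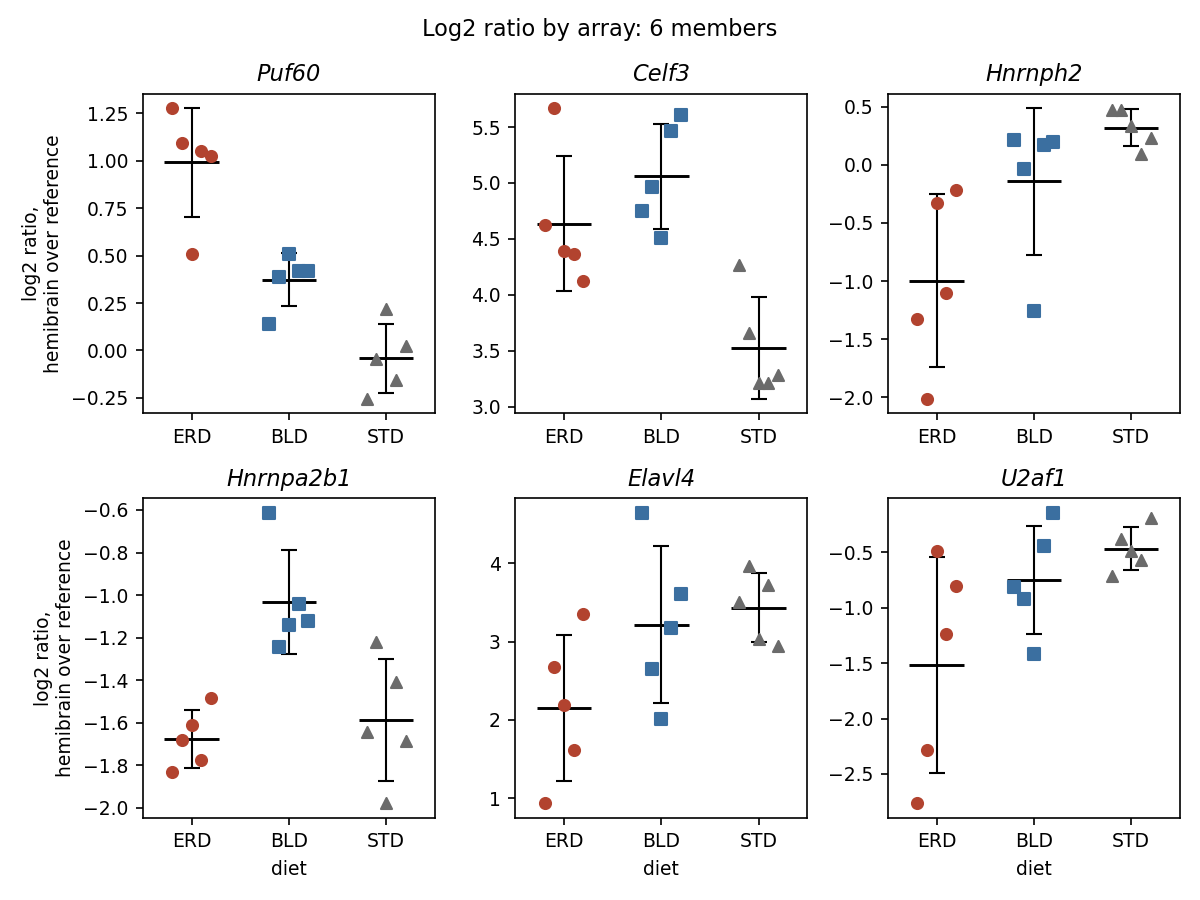
Log2 ratio of hemibrain over reference on each array for Puf60, Celf3, Hnrnph2, Hnrnpa2b1, Elavl4 and U2af1, with diets along the horizontal axis, a point per array spread sideways for sight, and the mean ± SD (n = 5) in black. Puf60 and Hnrnph2 separate ERD from STD, Celf3 separates BLD from STD and Hnrnpa2b1 separates ERD from BLD, while Elavl4 and U2af1 overlap in each pair of diets.

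U2af1, the small U2AF subunit that reads the last bases of the intron, read -2.76, -2.28, -0.49, -1.24 and -0.80 in ERD, -0.81, -0.93, -1.42, -0.44 and -0.14 in BLD, and -0.71, -0.38, -0.49, -0.57 and -0.20 in STD. ERD 1 and ERD 2 lay far below the rest, and the groups overlapped. The difference of ERD from STD was -1.04 ± 0.36 (SE, adjusted p = 0.218 in limma), and without ERD 1 and ERD 2 it was -0.37 (adjusted p = 0.552). A further U2af1 probe gave -0.03. U2af2, the large subunit that binds the pyrimidine tract, differed by 0.14 (adjusted p = 0.729), and U2af1l4, a paralog of U2af1, by 0.13 (adjusted p = 0.717).

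Among the SF3A and SF3B proteins, which hold the branch point of the intron, 2 of 9 were lower in ERD than in STD at an unadjusted p under 0.05. That is 22.2% of them, beside 7.54% of all genes. Sf3a1 differed by -0.32 ± 0.12 (adjusted p = 0.263) and Sf3b1, the subunit that clamps the branch point, by -0.56 ± 0.26 (adjusted p = 0.335) (SE, limma). For Sf3b1 the difference was -1.47 from the scanner software's log ratio and -0.13 without ERD 1 and ERD 2 (adjusted p = 0.823). Its values were -0.58, -0.67, 0.19, 0.07 and 1.05 in ERD, 0.38, 0.51, 0.55, 0.75 and 1.22 in BLD, and 0.64, 0.58, 0.59, 0.37 and 0.67 in STD. The ERD values spanned more than those of both other diets together.

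On the higher side stood Sf3b6, the subunit that touches the branch point adenosine, with 0.46 ± 0.25 in ERD against STD (SE, adjusted p = 0.399), and Sf3b5, a small SF3B subunit, with 0.32 ± 0.22 (adjusted p = 0.515). Without ERD 1 these differences were 0.26 for Sf3b6 and 0.18 for Sf3b5, and without ERD 1 and ERD 2 that of Sf3b6 was 0.092. Sf3b5 read 0.35, -0.35, -0.32, -0.33 and -0.33 in ERD and -1.09, -0.45, -0.44, -0.68 and -0.39 in BLD. The lowest ERD array thus lay above the highest BLD array, by a small margin, and ERD 1 stood alone at the top. That difference was 0.41 ± 0.22 (SE, adjusted p = 0.531), and 0.28 without ERD 1. Sf3a2 was highest in BLD, with 0.52 ± 0.26 against STD (SE, adjusted p = 0.477). Within the earlier scan day, which held 2 BLD arrays, Sf3a2 differed by 0.13 between BLD and STD. Over all arrays both channels of Sf3a2 were higher in BLD than in STD, Cy5 by 0.88 and Cy3 by 0.48.

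The SR proteins, which bind exonic enhancers, leaned to lower values in ERD. Of 11 measured SR and TRA2 genes 9 lay below 0 against STD (median -0.28), where 47.1% of all genes did. Of the 11 genes 3 were lower at an unadjusted p under 0.05 (27.3%, beside 7.54% of all genes), none of them called. The family median against BLD was -0.46, with 4 of 11 lower at that p (36.4%, beside 7.74% of all genes). BLD against STD gave 0.13 and 0 of 11, beside 10.8% of all genes. Srsf5 read -2.35, -2.67, -1.28, -1.54 and -1.79 in ERD, -0.82, -0.71, -2.29, -0.42 and -0.17 in BLD, and -1.13, -0.54, -1.38, -0.87 and -1.47 in STD. ERD 1, ERD 2 and BLD 3 were the lowest arrays, and each pair of diets overlapped.

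For Srsf5 ERD differed from BLD by -1.04 ± 0.35 (adjusted p = 0.389) and from STD by -0.85 ± 0.35 (adjusted p = 0.289) (SE, limma), the difference from STD being -0.46 without ERD 1 and ERD 2. Srsf12, whose ratio to the reference was the highest of its family, read 0.93, 2.29, 0.93, 1.41 and 1.83 in ERD, 2.88, 1.80, 2.20, 2.76 and 2.73 in BLD, and 2.10, 2.82, 2.37, 1.91 and 1.65 in STD. ERD 1, ERD 3 and ERD 4 lay below every array of the other diets. The difference of ERD from BLD was -0.996 ± 0.29 (SE, adjusted p = 0.33), but -0.21 in Cy5 alone. Tra2a, a partner of the SR proteins, read -1.04, -0.91, -1.02, -1.12 and -0.84 in ERD and -0.70, -0.45, -0.12, -0.53 and -0.62 in BLD, without overlap, a difference of -0.50 ± 0.19 (SE, adjusted p = 0.426). Its STD arrays overlapped both, at -0.43, -0.37, -0.91, -0.38 and -1.46. By its chosen probe Srsf7 differed little in any comparison, by 0.06 in ERD against STD (95% interval -0.25 to 0.36). A further Srsf7 probe gave -0.001 for ERD against STD, but 0.43 for BLD against STD and -0.43 for ERD against BLD.

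The hnRNP genes leaned to lower values in ERD, mostly on ERD 1 and ERD 2. Against BLD, 16 of 19 genes lay below 0 in ERD (median -0.51), where 58.1% of all genes did. At an unadjusted p under 0.05, 8 were lower (42.1%, beside 7.74% of all genes), with 0 called. Against STD the ERD median was -0.23, with 15 of 19 below 0, beside 47.1% of all genes. The BLD median against STD was 0.17, with 15 of 19 above 0, beside 13658 of all 22545 genes. Relative to each gene's STD mean, the family median was -0.65 on ERD 1 and -0.60 on ERD 2, but -0.09, -0.19 and -0.06 on ERD 3, ERD 4 and ERD 5, and between 0.02 and 0.27 on the BLD arrays. Hnrnpa2b1, which packages pre-mRNA and takes part in mRNA transport in neural cells, read -1.83, -1.68, -1.61, -1.78 and -1.49 in ERD, -0.61, -1.25, -1.14, -1.04 and -1.12 in BLD, and -1.65, -1.22, -1.98, -1.41 and -1.68 in STD. All BLD arrays lay above all ERD arrays, while STD overlapped both. The differences were -0.64 ± 0.15 for ERD against BLD (adjusted p = 0.254) and 0.55 ± 0.15 for BLD against STD (adjusted p = 0.291), and -0.09 ± 0.15 for ERD against STD (adjusted p = 0.809) (SE, limma). Without ERD 1 and ERD 2 the first of these was -0.59.

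Hnrnph2, which binds G-rich runs in pre-mRNA, had the most negative difference of any measured member between ERD and STD. Its values were -1.32, -2.01, -0.33, -1.10 and -0.21 in ERD, 0.21, -0.03, -1.26, 0.17 and 0.19 in BLD, and 0.47, 0.47, 0.34, 0.10 and 0.23 in STD. Every ERD array lay below every STD array, and BLD 3 sat with the ERD arrays. The difference was -1.32 ± 0.33 (SE, 95% interval -2.01 to -0.62, adjusted p = 0.108), a fold of 0.402, and 4 of 5 ERD arrays were well above background. From the scanner software's log ratio it was -2.57, and with arrays weighted by their quality -1.13 (adjusted p = 0.0334). Over all alternatives the adjusted p lay between 0.0334 and 0.474. Without ERD 1 and ERD 2 the difference was -0.87 (adjusted p = 0.253), and Cy3 differed by 0.03. Groups did not overlap between ERD and STD in 2 of 61 measured members, a smaller share than the 3.79% of all genes. The 2 members were Hnrnph2 and Puf60, and the list was chosen for the values of Puf60.

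Hnrnpa1, a repressor of exons, went the other way. It read -1.12, -1.48, -1.29, -1.33 and -1.61 in ERD, -1.77, -1.41, -1.20, -1.58 and -1.45 in BLD, and -1.88, -1.57, -1.88, -1.52 and -2.15 in STD. ERD 5 overlapped the 2 highest STD arrays. ERD was above STD by 0.44 ± 0.14 (adjusted p = 0.194) and BLD above STD by 0.32 ± 0.14 (adjusted p = 0.451) (SE, limma). A further probe gave 0.07 for ERD against STD. Hnrnpd, also known as AUF1 and a regulator of mRNA decay, was 0.53 ± 0.20 higher in BLD than in STD (SE, adjusted p = 0.421) and 0.02 apart between ERD and STD. Hnrnpu, a scaffold protein of chromatin and pre-mRNA, read -2.10, -1.86, -0.42, -0.67 and -0.05 in ERD and 0.08, 0.11, -0.67, 0.22 and -0.08 in BLD, a difference of -0.95 ± 0.34 (SE, adjusted p = 0.409), which was -0.31 without ERD 1 and ERD 2.

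In the PTBP family, Ptbp2 read -0.08, -0.28, -0.45, -0.57 and -0.18 in ERD, -0.03, -0.22, -0.17, -0.36 and 0.33 in BLD, and 0.09, 0.33, 0.10, -0.18 and 0.05 in STD. The ERD arrays lay at the low end, with overlap, and the difference from STD was -0.39 ± 0.14 (SE, adjusted p = 0.230). From the scanner software's log ratio it was -0.93. Ptbp1 leaned the opposite way, by 0.22 ± 0.14 in ERD against STD (SE, adjusted p = 0.458) and by 0.31 ± 0.14 in BLD against STD (SE, adjusted p = 0.450). Ptbp3, a further paralog, differed by 0.26 in ERD against STD (adjusted p = 0.485).

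Among the neuronal families, Celf3 had the largest positive differences from STD in both ERD and BLD, and neither passed the test. Celf3 belongs to the brain CELF proteins that regulate exon inclusion. It read 4.63, 5.67, 4.39, 4.36 and 4.13 in ERD, 4.75, 4.97, 4.51, 5.46 and 5.61 in BLD, and 4.26, 3.66, 3.21, 3.21 and 3.28 in STD. All BLD arrays lay above all STD arrays, and of the ERD arrays ERD 5 alone fell below the highest STD array. BLD was 2.90-fold above STD, with a log2 difference of 1.53 ± 0.29 (SE, 95% interval 0.91 to 2.16, adjusted p = 0.130), and ERD was 2.16-fold above STD, with 1.11 ± 0.29 (SE, 95% interval 0.49 to 1.74, adjusted p = 0.126).

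Celf3 alone of the 61 measured members had BLD and STD arrays that did not overlap, a smaller share than the 2.89% of all genes. With array weights its BLD difference was 1.62 (adjusted p = 0.0131), and from the scanner software's log ratio 0.72, and the adjusted p lay between 0.0131 and 0.916 over all alternatives. On slide 7, which carried both diets, BLD was above STD by 2.40, and ERD was above STD by 2.01, 0.13 and 0.92 on slides 4, 5 and 7. Celf3 has a single probe on the array.

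By their chosen probes Celf4 and Celf5 leaned to lower values in BLD, which the further probes of Celf5 did not show. Celf4 read 4.21, 4.36, 3.16, 2.99 and 3.38 in ERD, 3.27, 2.72, 2.40, 2.81 and 3.62 in BLD, and 4.03, 3.87, 3.68, 3.88 and 3.27 in STD. BLD 5 and BLD 1 overlapped the lowest STD array, STD 5. BLD differed from STD by -0.78 ± 0.28 (SE, adjusted p = 0.408), and by -0.39 with a further Celf4 probe. That further probe was lowest in ERD, which differed from BLD by -0.24 and from STD by -0.63 (unadjusted p = 0.00308), where the chosen probe gave 0.66 and -0.13. With array weights the difference of BLD from STD by the chosen probe was -0.95 (adjusted p = 0.0497). Over all alternatives the adjusted p of that comparison lay between 0.0497 and 0.985. Within the earlier scan day BLD differed from STD by -0.30. Celf5 differed by -0.36 ± 0.17 between BLD and STD (SE, adjusted p = 0.461), and by 0.14 and 0.10 with its 2 further probes. Celf1, Celf2 and Celf6, which regulate splicing and mRNA stability, differed between ERD and STD by -0.32, -0.14 and -0.06, with adjusted p of 0.449, 0.571 and 0.952.

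Of the ELAVL proteins, which stabilise AU-rich mRNAs and act on neuronal splicing, Elavl4 and Elavl1 had the largest negative differences between ERD and STD. Elavl4, known as HuD, read 0.93, 2.68, 2.19, 1.61 and 3.35 in ERD, 4.65, 2.65, 2.005, 3.18 and 3.61 in BLD, and 3.50, 3.96, 3.04, 3.72 and 2.94 in STD. All ERD arrays but ERD 5 lay below the STD range. The difference was -1.28 ± 0.47 (SE, adjusted p = 0.233) by the chosen probe and -0.64 in Cy5 alone, and a further Elavl4 probe gave -0.14. Elavl1 read -0.64, 0.10, 1.97, 1.45 and 1.66 in ERD against 1.76, 2.02, 1.35, 1.89 and 1.77 in STD, so ERD 1 and ERD 2 alone carried its difference of -0.85 ± 0.39 (SE, adjusted p = 0.328), which was -0.06 without them. The chosen Elavl1 probe was well above background on 4 of 5 ERD arrays. Elavl2 differed by -0.16 and Elavl3 by 0.15, with adjusted p of 0.790 and 0.831.

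Of the RBFOX proteins, Rbfox2, which is expressed beyond neurons, had the same low arrays as Elavl1. It read -1.42, -1.54, 1.19, 0.75 and 1.82 in ERD, 0.83, 1.08, -0.10, 1.58 and 1.56 in BLD, and 1.21, 0.98, 1.32, 0.88 and 1.12 in STD. The difference of ERD from STD was -0.94 ± 0.55 (SE, adjusted p = 0.438) and 0.15 without ERD 1 and ERD 2. A further Rbfox2 probe gave 0.13. Rbfox1 differed by -0.29 (adjusted p = 0.553) and Rbfox3 by -0.11 (adjusted p = 0.793), while a further Rbfox3 probe gave -1.18 with an unadjusted p of 0.00971. The NOVA proteins, which bind YCAY clusters in neuronal transcripts, differed by 0.17 for Nova1 (adjusted p = 0.663) and by 0.49 ± 0.26 for Nova2 (SE, adjusted p = 0.392).

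Between ERD and BLD the arrays did not overlap in 4 of 61 measured members, beside 1.37% of all genes. They were Hnrnpa2b1, Tra2a, Sf3b5 and Puf60, and the list was chosen for the values of Puf60. Puf60 and Sf3b5 were higher in ERD, and Hnrnpa2b1 and Tra2a were lower in ERD. On slides 1, 3 and 7, which carried both diets, Hnrnpa2b1 differed by -0.58, -1.22 and -0.36, Tra2a by -0.83, -0.35 and -0.23, and Sf3b5 by 0.12, 1.44 and 0.07. For these genes the sign had to be the same on all 3 slides, because their ERD and BLD arrays did not overlap. The shared sign is therefore no check across slides, and only the sizes are informative. The size for Sf3b5 came mostly from slide 3.

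A group of members was low on the same pair of ERD arrays. In 17 of 61 measured members (27.9%) ERD 1 and ERD 2 were the 2 lowest of all 15 arrays, against 5.43% of all genes. The group was picked after its values were seen and carries no test. It held 8 hnRNP genes (Hnrnpa0, Hnrnpab, Hnrnpf, Hnrnph1, Hnrnph2, Hnrnpk, Hnrnpm and Hnrnpu), 4 SR genes (Srsf3, Srsf5, Srsf6 and Srsf9), Sf3b1, Sf3b3, U2af1, Elavl1 and Rbfox2. Relative to each gene's STD mean, the median over these 17 genes was -1.27 on ERD 1 and -1.40 on ERD 2, and between -0.33 and 0.33 on each of the other 13 arrays. BLD 3 was the lowest BLD array in 12 of the 17.

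The lower readings lay in the hemibrain channel. Averaged over ERD 1 and ERD 2 and set against the STD mean, the median over the 17 genes was -1.32 in Cy5 and -0.01 in Cy3. Srsf9, an SR protein, read -2.76 and -2.56 on this pair and from -1.42 to -0.50 on the other 13 arrays. Hnrnpf, which binds G-rich runs like Hnrnph2, read -3.88 and -3.85 on the pair and from -2.60 to -1.39 elsewhere. Further probes of the same genes repeated the pattern in part. Of 10 further measured probes for 9 of these genes, 1 had ERD 1 and ERD 2 as its lowest arrays, the further probe of Elavl1. ERD 2 was the lowest array on 6 of the 10 (Elavl1, Hnrnpa0, Hnrnpk, Srsf3, Srsf6 and U2af1), and on 5 of these, all but U2af1, ERD 1 was among the 5 lowest. ERD 2 was lowest in 9.46% of all genes. The 9 genes were picked for low values on these same arrays, so that share is no like comparison. Of the 17 chosen probes, those of Elavl1, Hnrnpf, Hnrnph2, Hnrnpk, Sf3b1 and Srsf6 were well above background on 14 of 15 arrays. The others were so on all 15. The part of probe position, RNA quality or detection in this pattern was not tested. ERD 1 had 17720 spots above background in Cy5 and ERD 2 had 28117, against 24764 to 29140 in STD.

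**Figure D4:**
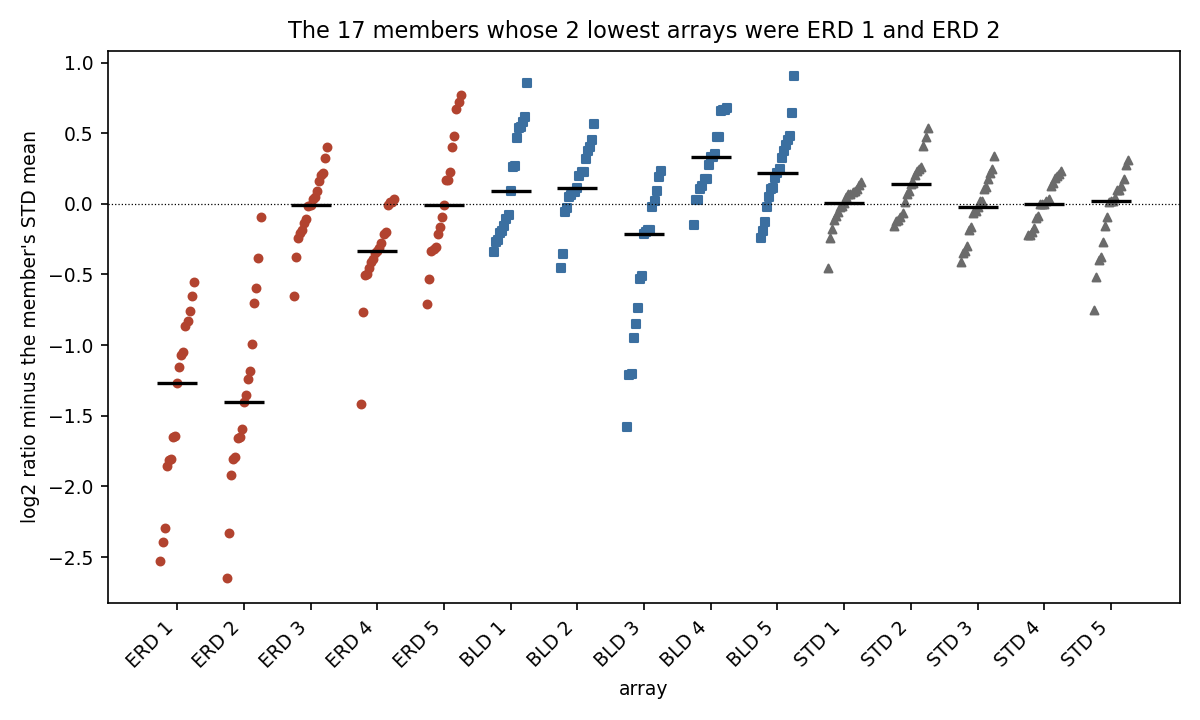
Log2 ratio minus the gene's own STD mean for the 17 members whose lowest arrays were ERD 1 and ERD 2, with arrays along the horizontal axis, a point per gene sorted within the array, and the median as a black line. The medians are -1.27 on ERD 1 and -1.40 on ERD 2 and lie between -0.33 and 0.33 on the other arrays, with BLD 3 spreading furthest down among them.

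Promoter windows of the members were rich in CpG pairs. The windows span 300 bases around the start of each transcript, most of them before it, from RefSeq (GRCm38.p6), and 53 of the 62 members matched, with 90 windows. The median window held 24 CpG pairs, against 7 over all 32851 windows. GGGCGG, the core of an Sp-type GC box, stood in 65.6% of the members' windows and 35.7% of all windows. CCAAT stood in 50% against 37.4%, CCGGAA (an ETS core) in 26.7% against 14.9%, and TATAAA in 10% against 13.6%, each counted on both strands. These matches describe letters and not binding. The windows of Hnrnph2 (chrX:134600929-134601228, plus strand, 14 CpG pairs) and Srsf9 (chr5:115326927-115327226, plus strand, 32 CpG pairs) are shown because both genes belong to the group low on ERD 1 and ERD 2. They are written 5′ to 3′, with the searched motifs of either strand in capitals.
Hnrnph2: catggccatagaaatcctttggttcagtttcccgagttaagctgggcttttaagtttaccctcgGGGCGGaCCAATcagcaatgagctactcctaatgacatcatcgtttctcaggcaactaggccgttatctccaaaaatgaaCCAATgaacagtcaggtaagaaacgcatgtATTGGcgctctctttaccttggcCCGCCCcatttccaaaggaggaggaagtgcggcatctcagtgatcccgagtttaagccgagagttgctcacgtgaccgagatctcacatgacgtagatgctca
Srsf9: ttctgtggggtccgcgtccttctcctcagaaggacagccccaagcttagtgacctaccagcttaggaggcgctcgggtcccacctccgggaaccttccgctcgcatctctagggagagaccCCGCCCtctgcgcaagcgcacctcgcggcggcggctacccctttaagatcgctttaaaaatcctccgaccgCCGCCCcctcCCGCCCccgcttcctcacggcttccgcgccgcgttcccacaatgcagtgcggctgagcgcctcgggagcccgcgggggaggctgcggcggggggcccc
Hnrnph2 held CCAAT and GGGCGG matches, and Srsf9 held GGGCGG matches only.

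Members spread more between animals of the same diet than most genes. The median within-diet SD was 0.34 for members, against 0.26 for all genes. Rbfox2 (0.98), Elavl4 (0.83), Hnrnpul1 (0.75), Elavl1 (0.69) and Hnrnpf (0.67) spread the most, above at least 96% of all genes, and Celf2 (0.15) the least.

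Further probes gave a partial check of the chosen ones. For 32 members 43 further probes were measured, and 34 of them had the same sign as the chosen probe for ERD against STD, 21 for BLD against STD and 27 for ERD against BLD. The median distance between chosen and further probe was 0.26 for ERD against STD on the log2 scale. Hnrnpk, an RNA-binding protein of nucleus and cytoplasm, held its difference of -0.77 with a further probe at -0.57, and Elavl1 (-0.85) with one at -0.52. Those of Elavl4, U2af1 and Rbfox2 lay near 0 as given above. Probes of a gene can fall on different transcripts, and these were not matched to positions here.

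**Figure D5:**
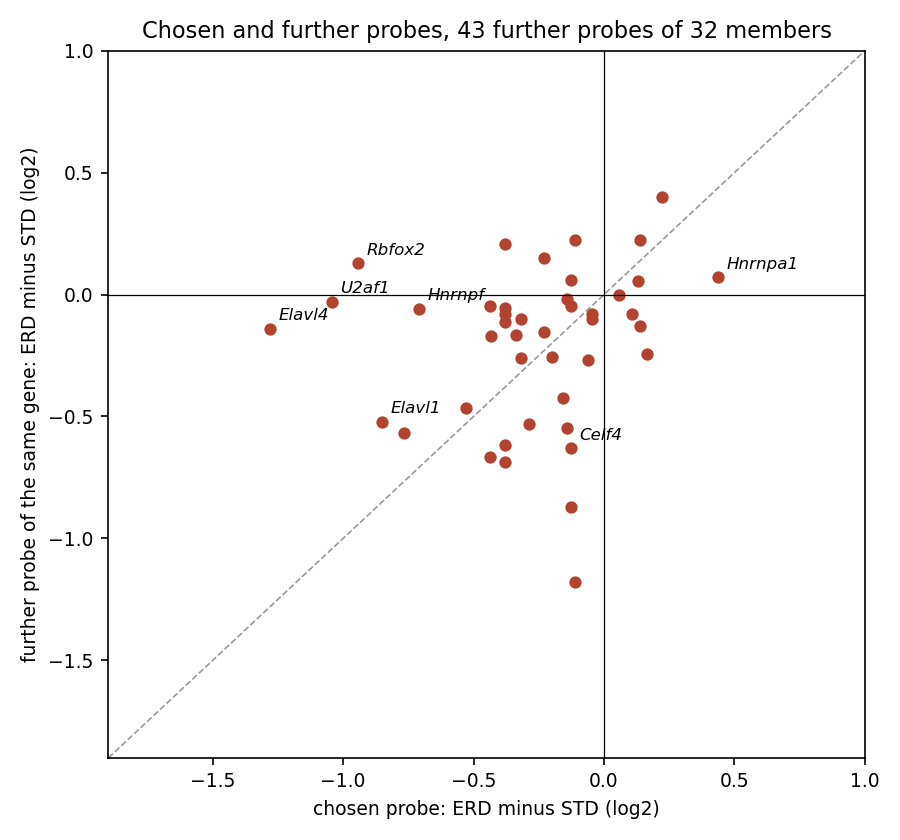
Log2 difference of ERD from STD by the chosen probe (horizontal axis) and by each further measured probe of the same gene (vertical axis), 43 probes of 32 members, with the line of equality dashed. Elavl4 (-1.28 and -0.14), U2af1 (-1.04 and -0.03) and Rbfox2 (-0.94 and 0.13) lie far above that line, while Elavl1 (-0.85 and -0.52) lies nearer to it.

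The members whose log2 ratio ran most like that of Puf60 over the 15 arrays were Sf3b6 (Pearson r = 0.67), Hnrnpa1 (0.62) and Sf3b5 (0.55). Larger values of the other sign belonged to Hnrnph2 (-0.80) and U2af1 (-0.72). Puf60, Sf3b6 and Sf3b5 were each highest on ERD 1, the array least correlated with the rest. With each diet's mean removed, r was 0.73 for Sf3b6, 0.11 for Hnrnpa1 and 0.58 for Sf3b5. It was then 0.71 for Srsf7, -0.77 for Nova2 and -0.75 for Hnrnpd. All of these values share arrays, dye and normalisation, and they are a description.

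Other genes of the splicing machinery gave 0 calls in each comparison. Between ERD and STD 7.09% of all genes were higher and 7.54% lower at an unadjusted p under 0.05. Of 13 U1, U2 and Sm proteins, 2 were lower in ERD than in STD at an unadjusted p under 0.05. These were Snrpf by -0.84 (adjusted p = 0.194) and Snrpd3 by -0.50 (adjusted p = 0.298). Of 19 proteins of the tri-snRNP and the Prp19 complex, 1 was higher and 2 lower, among them Eftud2, the GTPase of the U5 particle, at -0.66 (adjusted p = 0.172) and Xab2 at 0.61 (adjusted p = 0.266). Of 32 other splicing regulators, 1 was higher and 2 lower, with Tardbp, which encodes TDP-43, at 0.64 (adjusted p = 0.20) and Srrm1, a splicing coactivator, at -0.39 (adjusted p = 0.305).

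Of 8 kinases that phosphorylate SR proteins, 1 was lower in ERD than in STD at that p, Clk3 with -0.33 (adjusted p = 0.224), and Clk4 followed with -0.54 (adjusted p = 0.40). Against BLD 4 of 8 were lower in ERD, and these, named after their values were seen, were the CLK kinases Clk1 (-0.51), Clk2 (-0.26), Clk3 (-0.46) and Clk4 (-0.75), with adjusted p between 0.287 and 0.458. The list's median was -0.25 against BLD, and the share of all genes lower at that p was 7.74%. BLD against STD gave 0 of 8 at an unadjusted p under 0.05, beside 10.8% of all genes.

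No cell type marker was called in any comparison. All 6 neuron markers were measured, and their mean log2 ratio lay between 4.56 and 5.23 in ERD, 4.87 and 5.62 in BLD, and 5.15 and 5.48 in STD. The lowest neuron value was that of ERD 1. The median neuron marker differed by -0.28 between ERD and STD, the median microglial marker by -0.36 and the median oligodendrocyte marker by -0.25, with 6 of 6 markers measured in each list. The 6 astrocyte markers had a median difference of -0.05 and the 5 endothelial markers of -0.09. Of 4 erythroid markers 3 were measured, all but Hbb-bs, and their mean lay between 1.91 and 2.12 in ERD, 2.03 and 3.34 in BLD, and 1.996 and 2.44 in STD, with BLD 1 and BLD 3 highest. The part of cell type shares in the differences of the splicing genes was not tested.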

How the data were processed

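Hemibrain RNA of 15 mice was measured on 15 2-colour Agilent arrays, 5 per diet, with replicates numbered in accession order. The deposited scanner files hold spot intensities in each channel, per the file headers, together with background-subtracted and dye-normalized processed intensities. The authors' deposited value table gives log10 ratios, Cy5 over Cy3, equal to those of the scanner files on 15 of 15 arrays. Feature Extraction 11.5.1.1 is named in the file headers and 10.7 in the submitters' processing notes.

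Median intensities were corrected for background with normexp (offset 50), then loess was applied array by array in limma 3.58.1 under R 4.3.3, in place of the log ratio of the scanner software, which was run as an alternative. Control spots had no weight, and outlier spots (0.574% of non-control spots) were left out. Spots of a probe were averaged. A gene was kept when 5 or more arrays read its probe well above background in Cy5 and 8 or more gave a value, which left 22545 genes, unnamed probes counted singly. Symbols came from RefSeq accessions through the GRCm38.p6 gene table, which named 27656 of 55681 probes. The headers name an older build, so no coordinates were taken from the files.

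All 15 arrays entered 1 linear model with a mean per diet and 12 residual degrees of freedom. P-values were moderated by eBayes and adjusted over the whole table by the Benjamini-Hochberg method. Intervals are at 95%. Each array holds 1 animal, and replicates of a diet also lay on different slides and, for ERD and BLD, on 2 scan days, so p-values measure the spread between animals and arrays together. The model was tested on simulated data, with log2 changes between ERD and STD set in 50 genes per size. It recovered 24% of changes of 0.5, 70% of those of 1, 94% of those of 1.5 and 94% of those of 2. Of the calls 4.73% were unchanged genes. The simulated noise was independent for each gene and array, so it held no array or slide effect shared by genes. The number of arrays limits the precision, since arrays have no read depth.

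The members and lists were chosen with earlier results of these data known. The text names Puf60, all U2AF, PTBP, CELF, ELAVL, RBFOX and NOVA genes, any called member, the 5 largest differences each way per comparison, the 2 lowest p per family, the 5 highest and lowest ratios in STD and the 3 genes most like Puf60, which made 38 members. Further names in the group low on ERD 1 and ERD 2 and among genes whose diets did not overlap were added after their values were seen. Of other splicing lists the 2 lowest p for ERD against STD are named. Figures were drawn with matplotlib.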

Additional observations from a re-analysis of the deposited data

Results flagged for a closer look

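In 114 groups of 5 arrays, formed by 38 named members in 3 diets, the highest or lowest array was set against the rest of its group by Dixon's test at 95%, and 8 groups held an array that stood apart. Chance gives about 1 in 20 groups, and STD 5 held 3 of the 8.

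Celf1 was at 1.74 on BLD 1, above the other BLD arrays. Celf5 was at 4.31 on ERD 3, below the other ERD arrays. Hnrnpf (-2.44) and Hnrnpu (-0.97) were lowest on STD 5 among the STD arrays, and U2af1l4 (1.20) was highest there. Sf3b1 was at 0.37 on STD 4, below the other STD arrays. Hnrnph2 was at -1.26 on BLD 3, far below the other BLD arrays and within the range of ERD. Sf3b5 was at 0.35 on ERD 1, above the other ERD arrays.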

How the results depend on the processing

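The count of members called for ERD against STD was 1 as reported, which is Puf60 and carries no test. This count was 0 with the log ratio of the scanner software, with slide as a fixed block and without ERD 1, BLD 3 and ERD 4 together. It was 2 with array weights. For BLD against STD it was 0 as reported and 2 with array weights, and for ERD against BLD it was 0 under all 30 alternatives. Leaving out any 1 array moved none of these counts. The median of the measured members for ERD against STD was -0.037 without ERD 1 and ERD 2 together, an alternative chosen after seeing the data. Over all 30 alternatives the median lay between -0.21 and -0.037 for ERD against STD, 0.01 and 0.16 for BLD against STD, and -0.25 and -0.15 for ERD against BLD. No called value turned its sign. Of 1133 values per comparison 43, 59 and 59 had another sign than reported, in the order ERD against STD, BLD against STD, ERD against BLD, and of those with an unadjusted p under 0.05 these were 0, 0 and 1. Aquantile leaves the ratios as they are and gave the reported values.

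Over the whole table the 49 genes called for ERD against STD ranged from 5 (without ERD 4) to 172 (without ERD 3) with 1 array left out, and from 0 (without ERD 1, BLD 3 and ERD 4 together) to 411 (array weights) otherwise. With slide as a fixed block 1 gene was called, with scan day 11, and with the 2 diets alone 22. The 2 genes for BLD against STD ranged from 1 to 10 and from 0 to 123, and the 0 genes for ERD against BLD from 0 to 1. No paired analysis was possible because the replicate numbers follow accession order and pair no animals. Signal over background limits Hnrnpl most, which was well above background on 2 of 5 ERD, 4 of 5 BLD and 5 of 5 STD arrays.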
